A study of Mus musculus with 4 samples.

Results

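The Tdpoz genes encode proteins with a TRAF-like (MATH) domain followed by a BTB/POZ domain, the same arrangement as in SPOP. SPOP is an adaptor: its MATH domain binds the substrate and its BTB domain joins it to CUL3, the scaffold of a ubiquitin ligase. The Tdpoz genes form a cluster of near copies in the mouse genome and are known for transcripts in the oocyte and the early embryo, whereas Spop lies elsewhere and is used in most tissues. The members were the rows whose Ensembl identifier maps to the symbol Tdpoz with a number, which gave 5 genes (Tdpoz1 to Tdpoz5) of the 30049 genes listed, and Spop was described beside them as the parent-like gene.

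RNA-seq was performed on 2-cell embryos of wild-type mice on a BDF1 × BDF1 F2 background. Zygotes collected 18 h after hCG (the hormone that triggers ovulation) were cultured for 24 h in KSOM, an embryo culture medium, either alone (control embryo) or with 2% dimethyl sulfoxide (DMSO-treated embryo), a solvent and cryoprotectant. Each group had 2 libraries from pools of 50 embryos, and the labels do not state whether replicates came from separate collections, so the p-values measure only the spread between these samples, which may be technical. Every control carried the same strain, culture and collection conditions and lacked only the DMSO. The values are TPM (transcript abundances scaled to a fixed total per library), a level corrected for transcript length, which keeps no record of read depth. The depth behind each value is therefore unknown, and the TPM of the listed genes summed to 768174 and 780527 in the controls and to 772487 and 799166 in the DMSO libraries. In a pool of embryos, fewer cells with a transcript and less of it per cell cannot be told apart.

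All 5 Tdpoz genes lie on chromosome 3 (GRCm38) within the same cluster. Tdpoz2 (ENSMUSG00000103362, chr3:93651542-93652686, minus strand) and Tdpoz1 (ENSMUSG00000094084, chr3:93669333-93676310, minus strand) came first along the chromosome. Tdpoz4 (ENSMUSG00000060256, chr3:93796398-93797510) and Tdpoz3 (ENSMUSG00000058005, chr3:93826020-93827117) followed on the plus strand, and Tdpoz5 (ENSMUSG00000094163, chr3:93960292-93961314) lay on the minus strand beyond them. Tdpoz1 had 2 exons, and each of the others was annotated as 1 exon. The annotated proteins were of similar size, from 340 residues for Tdpoz5 to 370 for Tdpoz4, beside 374 for Spop. Spop itself (ENSMUSG00000057522) has 11 exons at chr11:95414080-95493406.

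The 5 coding sequences were alike but not the same. Protein identity between members ran from 60.4% for Tdpoz3 and Tdpoz4 to 77.5% for Tdpoz1 and Tdpoz3, and identity to SPOP ran from 56.2% for Tdpoz3 to 61.0% for Tdpoz2. The coding sequences aligned over 1116 columns, gaps included, of which 654 were identical in all 5. At 70 columns Tdpoz2, the member that passed the test described further on, differed from each of the other 4. Such columns were not counted for the other members. The stretch of 60 bases shown here, taken from the coding sequence of each member and read 5′ to 3′ on its own strand, shows how Tdpoz2 differs from the other 4 members. Its closest copies, described in the next paragraph, were not aligned here. The stretch covers coding positions 225 to 284, holds 10 positions at which Tdpoz2 differs from each other member, and has capitals where a base departs from the most frequent base at that position. Tdpoz2 departs from that base at 10 positions and Tdpoz4 at 11. The stretch was picked because no other stretch of 60 bases without gaps held more positions at which Tdpoz2 differs from each other member. It was read from GRCm38 at chr3:93671192-93671251 for Tdpoz1, chr3:93652380-93652439 for Tdpoz2, chr3:93826244-93826303 for Tdpoz3, chr3:93796622-93796681 for Tdpoz4 and chr3:93961031-93961090 for Tdpoz5.
Tdpoz1: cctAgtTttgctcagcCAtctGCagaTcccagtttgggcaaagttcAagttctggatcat
Tdpoz2: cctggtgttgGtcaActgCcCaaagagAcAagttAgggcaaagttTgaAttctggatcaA
Tdpoz3: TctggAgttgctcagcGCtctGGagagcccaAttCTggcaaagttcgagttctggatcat
Tdpoz4: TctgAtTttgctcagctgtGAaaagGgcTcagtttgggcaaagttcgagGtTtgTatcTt
Tdpoz5: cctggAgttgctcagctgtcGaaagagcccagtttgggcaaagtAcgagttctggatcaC

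Beyond the 5 members, the cluster holds further copies that share transcript sequence with them. A nucleotide search of the annotated transcripts found 20 other genes on chromosome 3 that matched a member over at least 50% of its coding sequence, so that 25 copies were listed in all, 14 annotated as protein coding and 11 as pseudogenes. RefSeq names 3 of these as further Tdpoz genes, namely Gm10697 (Tdpoz7), Gm4858 (Tdpoz8) and Gm9125 (Tdpoz9). Another 2 matches, Gm27228 and Gm27150, are processed pseudogenes elsewhere in the genome and were listed at 0 in every library. The levels were estimated by pseudoalignment, which assigns reads by short exact words. A gene's reads are therefore harder to tell apart where its words of 31 bases are shared. The share of these words that transcripts of other listed genes also held was counted. The words were taken from the GENCODE transcripts of GRCm38, which may differ from the transcript set the authors indexed, so the shares are approximate for their estimates. This share was 58.4% for Tdpoz1, 66.0% for Tdpoz2, 75.7% for Tdpoz3, 63.6% for Tdpoz4 and 100% for Tdpoz5, and 2.0% for Spop. In this annotation no word of the 25 copies occurred in a listed gene other than these copies and the pseudogenes Gm27228 and Gm27150. The words of Tdpoz2 were shared mainly with Gm5773 (56.3%) and Gm9141 (53.4%), those of Tdpoz3 with Gm4982 (75.7%), and those of Tdpoz1 with Gm9117 (57.6%) and Gm9125 (54.2%). Those of Tdpoz4 were shared mainly with Gm5541 (48.8%) and Gm4858 (33.7%). All 993 words of Tdpoz5 occurred in Gm10697, and the deposited values of these genes were the same in every library. The level of each Tdpoz gene is uncertain where its words are shared, Tdpoz5 most of all.

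**Figure D1:**
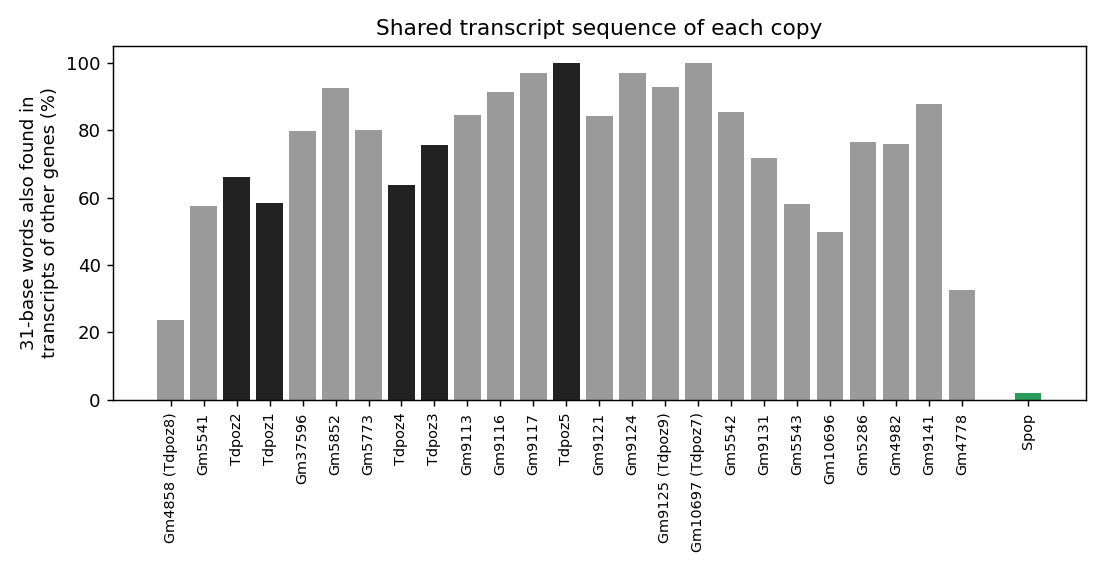
Percent of the 31-base words of each gene's transcripts (vertical axis) that also occur in transcripts of other listed genes, for the 25 copies in chromosome order and Spop; black bars are Tdpoz1 to Tdpoz5, grey bars the other copies, and the green bar Spop. The share ran from 23.8% in Gm4858 to 100% in Tdpoz5 and Gm10697, whereas Spop had 2.0%.

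Taken as a family, the Tdpoz genes did not separate the groups. The 5 members summed to 169 and 117 TPM in the control embryo libraries and to 179.9 and 120.3 TPM in the DMSO-treated embryo libraries. The groups overlapped, and replicate 1 was the higher library in both. The means were 143 ± 36.8 TPM and 150.1 ± 42.2 TPM (SD, n = 2 each), a log2 ratio of 0.06 beside SDs of 0.37 and 0.41 on the log2 scale, so the difference was smaller than the spread between replicates. With 2 libraries against 2 an exact two-sided permutation test cannot go below p = 0.333, and no test of the sum was made. The ratio turned negative without control replicate 2 (-0.20) or without DMSO replicate 1 (-0.23). Summed over all 25 copies the level was 1082 and 651 TPM in the controls and 1267 and 780.3 TPM in the DMSO libraries, which again overlapped (log2 ratio 0.24).

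Across the transcriptome, limma called 2470 of the 12038 genes tested at an adjusted p below 0.05, which is 20.5%, with 773 higher (6.42%) and 1697 lower (14.1%) in DMSO. Of the 5 Tdpoz genes 1 was called, Tdpoz2, which was lower. A count of 1 in 5 is close to the 20.5% of all genes, and so is no result about the family as a whole. Spop was not called.

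Tdpoz2 is a single-exon member whose product has the MATH and BTB arrangement of the family. Its level was 15.7 and 14.6 TPM in the controls and 5.64 and 7.44 TPM in the DMSO libraries. Both DMSO libraries lay below both controls, as in 38.7% of all genes tested. The means were 15.1 ± 0.786 and 6.54 ± 1.27 TPM (SD, n = 2 each), and the log2 fold change of TPM + 1 was -1.11 ± 0.31 (SE), with a 95% interval from -1.84 to -0.37 and a limma adjusted p of 0.0482. This call was narrow: it was lost in each fit that left out a library (adjusted p from 0.0656 to 0.219), and it was kept in 3 of the 8 other alternatives. Summed with Gm5773 and Gm9141, the copies over 95% identical to it, the level was 31.1 and 20.2 TPM in the controls and 14.4 and 15.9 TPM in the DMSO libraries, so the groups stayed apart with a smaller log2 ratio of -0.69. On their own, Gm5773 (log2 fold change -0.18, limma adjusted p = 0.781) and Gm9141 (-0.03, limma adjusted p = 0.964) overlapped between groups. The sum therefore does not show that these copies were lower with Tdpoz2.

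Tdpoz3, the member closest to Tdpoz1 in protein sequence, had the opposite order. Its level was 9.73 and 4.56 TPM in the controls and 27.6 and 10.3 TPM in the DMSO libraries. Both DMSO libraries lay above both controls, as in 31.1% of all genes tested, but DMSO replicate 2 was only just above control replicate 1. The log2 fold change was 1.22 ± 0.53 (SE) with a 95% interval from -0.06 to 2.50, and it did not pass the test (limma adjusted p = 0.138). Without DMSO replicate 1 it was 0.55, and without DMSO replicate 2 it was 1.89. With a replicate block Tdpoz3 was called (limma adjusted p = 0.0112), as were 42.6% of all genes tested in that fit. Same-numbered samples share no stated source. Summed with Gm4982, its closest copy, the level was 10.4 and 5.60 TPM in the controls and 29.5 and 11.4 TPM in the DMSO libraries, and the groups did not overlap here either. Gm4982 alone was listed at 0.660 and 1.04 TPM in the controls, against 1.85 and 1.02 TPM with DMSO, and its groups overlapped.

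Tdpoz4, the longest member and the least like the others in protein sequence, was listed at 13.3 and 5.74 TPM in the controls, against 19.4 and 10.3 TPM with DMSO. The groups overlapped, since control replicate 1 was above DMSO replicate 2. The log2 fold change was 0.63 ± 0.47 (SE), its interval ran from -0.50 to 1.77, and the limma adjusted p was 0.345. The means were 9.51 ± 5.34 and 14.9 ± 6.41 TPM (SD, n = 2 each), so the replicates of each group lay farther apart than the group means did. The fold change rested on single libraries, at 0.09 without control replicate 2, 0.21 without DMSO replicate 1, 1.06 without DMSO replicate 2 and 1.17 without control replicate 1.

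Tdpoz1, the only member with 2 exons, had the highest listed level of the 5. Its level was 74.5 and 63.0 TPM in the controls and 77.8 and 61.3 TPM in the DMSO libraries, which placed it between the 84.6th and the 88.6th percentile of the genes tested. The controls lay inside the range of the DMSO libraries. The log2 fold change was 0.01 ± 0.27 (SE), with an interval from -0.64 to 0.66 and a limma adjusted p of 0.979, so changes within these bounds could not be told from none.

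Tdpoz5, the shortest member, was listed at 56.1 and 29.3 TPM in the controls, against 49.5 and 30.9 TPM with DMSO. The controls spanned both DMSO values. The log2 fold change was -0.05 ± 0.40 (SE), the interval ran from -1.01 to 0.91, and the limma adjusted p was 0.933. These values apply to Gm10697 (Tdpoz7) as well, whose transcript could not be told from that of Tdpoz5. Summed, Tdpoz5 and Gm10697 came to 112 and 58.5 TPM in the controls, against 99.0 and 61.8 TPM with DMSO, which is above the listed level of Tdpoz1 alone in 3 of the 4 libraries. With every copy over 95% identical added to each, Tdpoz1 (239, 166, 207 and 161 TPM, controls first) lay above Tdpoz5 (204, 137, 189 and 116 TPM) in all 4. The order of the single genes thus depends on how shared reads were divided.

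Spop, the parent-like gene, was listed at 35.7 and 24.6 TPM in the controls, against 27.2 and 20.6 TPM with DMSO. The groups overlapped. The log2 fold change was -0.31 ± 0.32 (SE), with an interval from -1.07 to 0.45 and a limma adjusted p of 0.483. Spopl (chr2:23506220-23572106), which encodes the SPOP-like protein with 83.4% identity to SPOP, was lower in abundance, at 3.36 and 3.02 TPM in the controls and 6.22 and 2.77 TPM in the DMSO libraries. Its limma adjusted p was 0.580, and its groups overlapped.

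**Figure D2:**
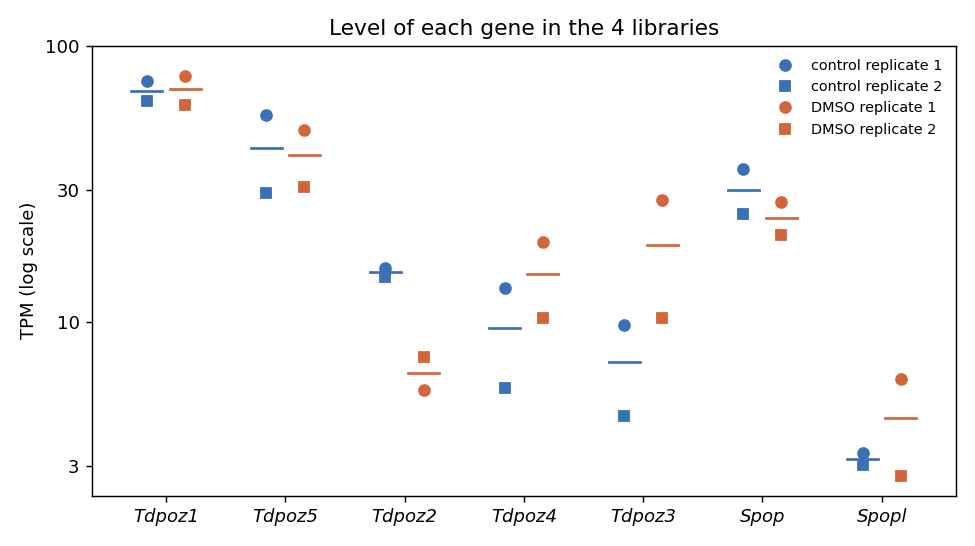
Level in TPM (log axis) of Tdpoz1 to Tdpoz5, Spop and Spopl in each library; blue is control, orange DMSO, circles replicate 1, squares replicate 2, and short lines the group means. The groups stand apart in Tdpoz2, at 15.7 and 14.6 against 5.64 and 7.44 TPM, and in Tdpoz3, and overlap in the other genes.

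The order of the listed levels per transcript length changed below the first places. In the control embryo it ran Tdpoz1, Tdpoz5, Spop, Tdpoz2, Tdpoz4, Tdpoz3 and Spopl. In this order the values of Tdpoz5 overlapped those of Spop, and those of Tdpoz4 overlapped those of Tdpoz3, so that these neighbours did not differ beyond their spread. In the DMSO-treated embryo it ran Tdpoz1, Tdpoz5, Spop, Tdpoz3, Tdpoz4, Tdpoz2 and Spopl. There the values of Spop overlapped those of Tdpoz3, those of Tdpoz3 overlapped those of Tdpoz4, and those of Tdpoz2 overlapped those of Spopl. As listed, Tdpoz2 thus moved from above Tdpoz4 and Tdpoz3 to below both. With copies over 95% identical added to each, the order was less clear. In the controls the Tdpoz2 sum (31.1 and 20.2 TPM) lay above that of Tdpoz3 but overlapped that of Tdpoz4 (35.6 and 13.3 TPM). With DMSO the Tdpoz2 sum (14.4 and 15.9 TPM) lay below that of Tdpoz4 but overlapped that of Tdpoz3 (29.5 and 11.4 TPM). The Tdpoz4 sum leaves out Gm4858, which is 94.7% identical to Tdpoz4 and was listed at 26.9 to 94.4 TPM.

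The make-up of the summed level was also described, since shares leave out the common rise and fall of the libraries. Tdpoz2 made up 9.26% and 12.4% of the 5-gene sum in the controls and 3.13% and 6.18% in the DMSO libraries. Tdpoz3 made up 5.75% and 3.89% in the controls and 15.4% and 8.59% in the DMSO libraries. Tdpoz4 made up 7.85% and 4.90% in the controls and 10.8% and 8.59% in the DMSO libraries. In each of these 3 genes the shares of the groups did not overlap, downward for Tdpoz2 and upward for the others, although the levels of Tdpoz4 themselves overlapped. Groups that do not overlap were common, since 69.8% of all genes tested had them in their levels. As listed, Tdpoz1 held the largest share in every library, at 44.0% and 53.8% in the controls and 43.2% and 50.9% in the DMSO libraries, and Tdpoz5 held 33.1%, 25.0%, 27.5% and 25.7% in the same order. Shares of a sum are tied to each other, so a fall in 1 gene raises the rest, and they were not tested. They also depend on how reads were divided between Tdpoz5 and Gm10697.

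**Figure D3:**
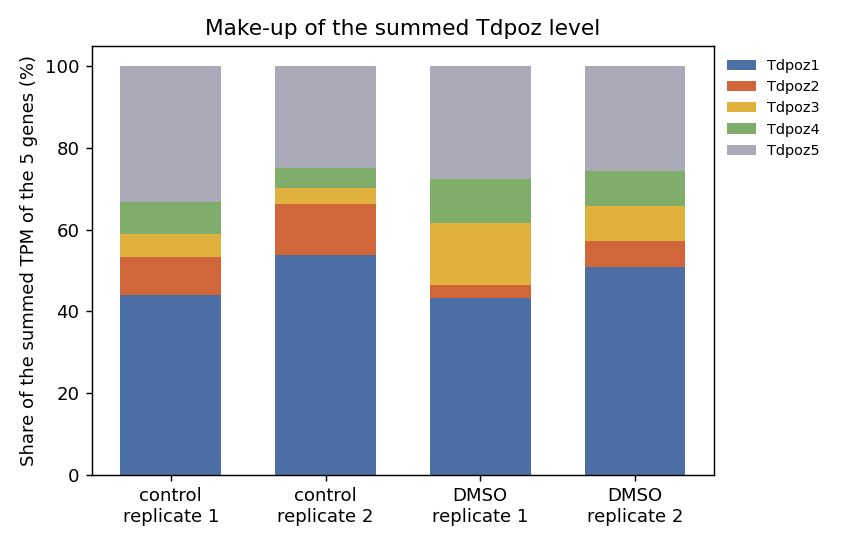
Percent of the summed TPM of the 5 genes (vertical axis) held by each gene, with 1 stacked bar per library. Tdpoz2 takes 9.26% and 12.4% in the control bars and 3.13% and 6.18% in the DMSO bars, whereas Tdpoz1 stays between 43.2% and 53.8%.

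The wider set of copies gave the context for these members. All 25 copies on chromosome 3 were tested, 16 had a log2 fold change above 0 and 9 below, and their median was 0.29 against -0.09 over all genes tested. The median turned negative without control replicate 2 (-0.17, against -0.13 over all genes) or without DMSO replicate 1 (-0.12, against -0.13), and so had no stable direction. No copy was called higher, where the background was 6.42%, and Tdpoz2 was the only copy called lower, where it was 14.1%. At an unadjusted limma p below 0.05 there were 5 copies of 25, beside 40.2% of all genes tested. The groups did not overlap in 6 copies that were higher and 2 that were lower in DMSO, out of 25, whereas 69.8% of all genes had groups that did not overlap. No test compared these shares. The copies are not independent, since 22 of the 25 share over 50% of their words with other genes. Tdpoz5 and Gm10697 hold the same values and were each counted.

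The 2 copies lying lower in both DMSO libraries were Tdpoz2 and Gm37596, which are neighbours of Tdpoz1 on either side. Gm37596 was listed at 12.2 and 19.5 TPM in the controls, against 5.97 and 7.65 TPM with DMSO (log2 fold change -1.08, limma adjusted p = 0.0693). Its coding sequence is 98.9% identical to that of Tdpoz5, not to that of Tdpoz2. On the other side, Gm4778 was listed at 13.8 and 8.08 TPM in the controls, against 37.6 and 21.2 TPM with DMSO (log2 fold change 1.34, limma adjusted p = 0.0583). The pseudogenes Gm9124 (log2 fold change 1.204, limma adjusted p = 0.0612) and Gm9121 (1.23, limma adjusted p = 0.0915) had fold changes close to that of Tdpoz3. None of these 4 passed the test.

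The most abundant copies were not members. Gm5286 was the highest, at 259.8 and 148 TPM in the controls and 327 and 195 TPM in the DMSO libraries. Gm10696 followed at 151 and 99.96 TPM in the controls and 229 and 156 TPM in the DMSO libraries. In Gm5286 the groups overlapped and in Gm10696 they were barely apart, and neither was called (limma adjusted p = 0.497 and 0.202). Among the copies that RefSeq names Tdpoz, Gm4858 (Tdpoz8) was listed at 80.9 and 26.9 TPM in the controls, against 94.4 and 34.8 TPM with DMSO. Gm9125 (Tdpoz9) was listed at 68.0 and 44.5 TPM in the controls, against 56.5 and 47.6 TPM with DMSO. Both overlapped between groups, and adding the 3 RefSeq-named genes to the 5 members gave sums of 374 and 218 TPM against 380.4 and 234 TPM, a log2 ratio of 0.06. The 5 members made up 15.6% and 18.0% of the summed TPM of all copies in the controls and 14.2% and 15.4% in the DMSO libraries. Pseudogenes made up 15.2%, 14.7%, 16.6% and 14.1% of it in the same order.

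**Figure D4:**
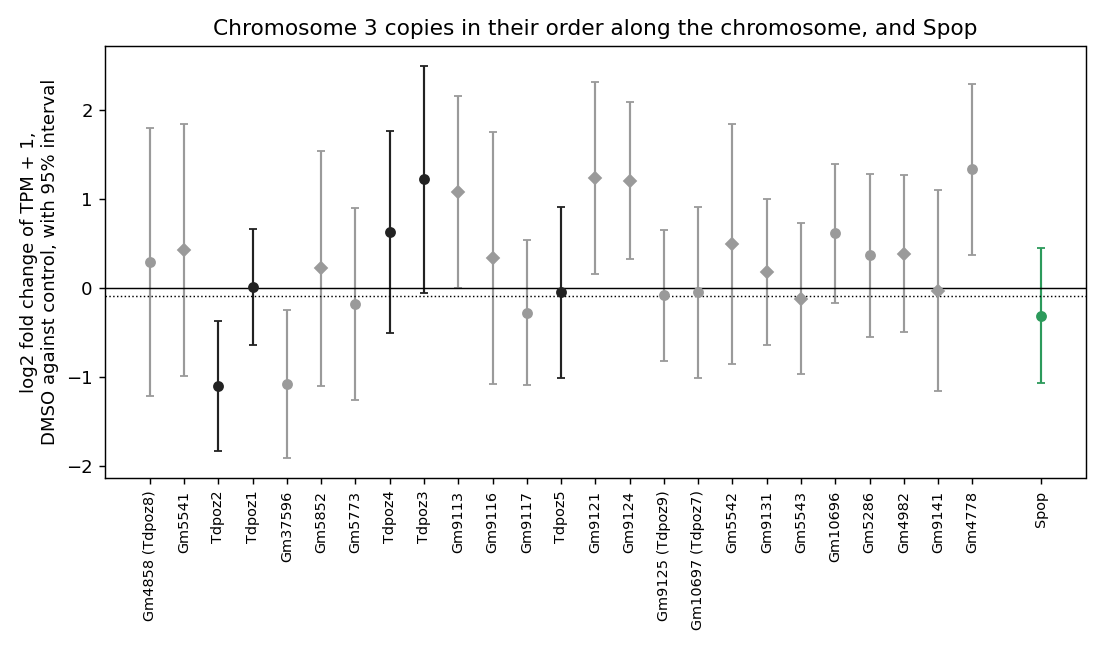
Log2 fold change of TPM + 1 in DMSO against control (vertical axis) with its 95% interval for the 25 copies in chromosome order and Spop; black marks Tdpoz1 to Tdpoz5, grey the other copies, diamonds pseudogenes, green Spop, and the dotted line the median of all genes tested (-0.09). Tdpoz2 (-1.11) and Gm37596 (-1.08) lie below the rest, and the interval of Tdpoz3 (-0.06 to 2.50) reaches 0.

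A further pattern lay between replicates and not between groups. Control replicate 1 had the higher level in 23 of the 25 copies, the exceptions being Gm37596 and Gm4982, whereas this held for 61.8% of all genes tested. DMSO replicate 1 had the higher level in 22 of the 25 copies, the exceptions being Tdpoz2, Gm37596 and Gm5773, against 53.8% of all genes. These counts are not of independent genes, since the copies share reads, and Tdpoz5 and Gm10697 hold the same values. The copies made up 0.141% and 0.0834% of the listed TPM in the controls and 0.164% and 0.0976% in the DMSO libraries. Among lists described further on, the 2-cell-stage sum was also higher in replicate 1 (3285 and 2508 TPM in the controls, 7514 and 5459 with DMSO). So was the oocyte sum (5207 and 2785, 11930 and 7194 TPM), so the pattern was not particular to the copies. The cumulus marker sum went the other way in DMSO and the sperm marker sum in the controls. Whether replicates with the same number share a collection is not stated, so this pattern was described and not tested.

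The genes nearest in pattern to the 5-gene sum were found over the 4 libraries by the distance between centred log2(TPM + 1) values, among the 5662 genes averaging 10 TPM or more. The closest were Poc5, Slain1, 5730480H06Rik, U2af1 and Rlim, with distances from 0.0817 to 0.0996. Poc5, a centriolar protein gene, was listed at 22.9 and 14.5 TPM in the controls, against 24.2 and 15.95 TPM with DMSO, so that it too was high in replicate 1 of both groups. Spop ranked 371 with a distance of 0.399, and none of the 12 copies other than the members at this level was among the first 100 genes. Gm5543 (119), Gm9125 (141), Gm10697 (168), Gm9117 (291) and Gm5286 (307) ranked ahead of Spop. The other copies ranked behind it, down to Gm37596 (4240).

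Within 500 kb of the span of the members, 62 genes were listed, of which 24 were Tdpoz copies. Of the other 38 genes, 7 averaged 1 TPM or more and were tested, and 14 were listed at 0 in every library. S100a11, which encodes a calcium-binding protein, was called higher (log2 fold change 1.48, limma adjusted p = 0.0320) and was named after its values were seen, since its mean lay below 10 TPM. It was listed at 0.224 and 0.233 TPM in the controls, against 2.60 and 2.27 TPM with DMSO. None was called lower, so that 1 and 0 of 7 stood beside 6.42% called higher and 14.1% called lower among all genes.

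The partners of SPOP-type adaptors were taken from a list of the CUL3 core and the NEDD8 pathway that activates it. Of its 23 genes tested, none was called higher and 2 were called lower, beside 6.42% and 14.1% of all genes, so the list held no more calls than the background. Its median log2 fold change was -0.27 against -0.09 for all genes. Without control replicate 2 the medians were -0.10 and -0.13, so this difference was no longer seen, whereas without each other library the list stayed below all genes (-0.25 and -0.0016 without control replicate 1, -0.40 and -0.13 without DMSO replicate 1, -0.29 and -0.06 without DMSO replicate 2). Cul3, the scaffold, was listed at 989 and 1008 TPM in the controls, against 499.9 and 617 TPM with DMSO. The groups did not overlap, and with a log2 fold change of -0.85 ± 0.25 (SE) it missed the threshold (limma adjusted p = 0.0541). Rbx1, the RING subunit, was listed at 234 and 252 TPM in the controls, against 304 and 251 TPM with DMSO, and the groups overlapped (limma adjusted p = 0.600). The genes called lower were Cops5 and Cops6, which encode subunits of the COP9 signalosome, the complex that removes NEDD8 from cullins. Cops5 fell from 24.7 and 24.4 TPM to 10.5 and 9.63 TPM (log2 fold change -1.21, limma adjusted p = 0.0328), a call lost when any 1 library was left out (adjusted p = 0.0666 without DMSO replicate 2). Cops6 fell from 177 and 190.4 TPM to 73.8 and 98.6 TPM (log2 fold change -1.10, limma adjusted p = 0.0366), and this call was lost without the variance trend (adjusted p = 0.0557), with median-ratio scaling (0.0502) and with quantile scaling (0.0799). In this list and in each list that follows, no gene was called without a filter on low values or when control replicate 1, control replicate 2 or DMSO replicate 1 was left out.

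Other BTB-domain adaptors of CUL3 formed a list with 31 genes tested, of which 1 was called higher and 5 lower, with a median log2 fold change of -0.20. These counts are near the 6.42% and 14.1% of all genes, and are no result about the adaptors as a group. The median was -0.30 without control replicate 2 or without DMSO replicate 1, against -0.13 for all genes in each. With quantile scaling it was 0.0147, against 0.0052 for all genes. Kbtbd8, an adaptor known for its part in neural crest specification, rose from 131 and 91.7 TPM to 322 and 212 TPM (log2 fold change 1.24, limma adjusted p = 0.0415), a call lost without the variance trend (adjusted p = 0.0594). Klhl7 fell from 29.4 and 29.3 TPM to 2.95 and 10.5 TPM (log2 fold change -2.17, limma adjusted p = 0.0341), and without DMSO replicate 1 its fold change was -1.40. Kbtbd2, an adaptor that acts in insulin signalling, fell from 23.8 and 22.2 TPM to 2.92 and 6.64 TPM (log2 fold change -2.13, limma adjusted p = 0.0228). The other 3 called lower were Btbd1 (log2 fold change -1.77), Klhl21 (-1.76) and Enc1 (-1.45), of which Klhl21 and Enc1 were named after their values were seen. With a pseudocount of 0.1 the log2 fold change of Btbd1 was -3.23.

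Known SPOP substrates gave 20 genes tested, none called higher and 2 lower, beside 6.42% and 14.1% of all genes, with a median log2 fold change of 0.06 that became -0.16 with the filter at 5 TPM and -0.01 without control replicate 2. Brd3, a bromodomain protein gene, fell from 22.5 and 35.3 TPM to 9.07 and 8.10 TPM (log2 fold change -1.61, limma adjusted p = 0.0271), a call also lost without DMSO replicate 2 (adjusted p = 0.0538). Setd2, the histone H3 lysine 36 methyltransferase, was the other (log2 fold change -1.42, limma adjusted p = 0.0250). These are transcript levels, and they say nothing of protein turnover.

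Genes of the stages at which the Tdpoz genes are known were listed for comparison. Of 20 genes of the 2-cell stage that were tested, 8 were called higher and none lower, beside 6.42% and 14.1% of all genes, and the median log2 fold change was 0.80. The largest change was that of Gm5662, which rose from 225 and 149.9 TPM to 1275 and 783 TPM (log2 fold change 2.44, limma adjusted p = 0.0181). Zfp352, a zinc finger gene, rose from 143 and 89.0 TPM to 551 and 373 TPM (log2 fold change 2.00, limma adjusted p = 0.0209). The others called higher were Gm4027, Gm2016, Gm8300, Tcstv1, Tcstv3 and Usp17lc. Their summed level was 3285 and 2508 TPM in the controls and 7514 and 5459 TPM in the DMSO libraries, and none of the 22 with a row was at 0 throughout. The most abundant of them was Sp110 in the controls, at 698 and 699 TPM, and Gm5662 in the DMSO libraries, where Sp110 was listed at 747 and 776 TPM. Of 23 oocyte genes tested, 5 were called higher and 1 lower, beside the same 6.42% and 14.1%, with a median of 0.96 that was 0.60 without control replicate 2. Their summed level was 5207 and 2785 TPM in the controls and 11930 and 7194 TPM in the DMSO libraries, led by Oog3 at 2489, 1095, 4679 and 2334 TPM in the same order, and Oog1 was listed at 0 in all libraries. Both sums lay higher in both DMSO libraries, as the 5-gene Tdpoz sum did not, and their part in the Tdpoz values was not tested.

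Markers of cells that could accompany the embryos were counted too. Of the 12 cumulus cell markers listed, 2 were tested and 1, Amhr2, was called lower (limma adjusted p = 0.0442), beside 14.1% of all genes, a call also lost with a pseudocount of 0.1, without the variance trend and with median-ratio or quantile scaling. Their sum was 39.99 and 31.7 TPM in the controls and 12.0 and 19.2 TPM in the DMSO libraries, of which Amhr2 alone gave 36.8, 29.7, 8.29 and 16.5 TPM, and Amh and Inhba were at 0 throughout. The other 11 markers summed to 3.17 and 2.06 TPM in the controls, against 3.71 and 2.71 TPM with DMSO, and so were not lower. Of the 7 sperm markers listed, 2 were tested and both, Prm2 and Tnp1, were called higher, beside 6.42% of all genes. Only 1 was called with a pseudocount of 0.1, and with the filter at 5 TPM Prm2 alone was tested and called. The 7 markers had a sum of 2.96 and 3.38 TPM in the controls and of 13.5 and 8.69 TPM in the DMSO libraries, mostly Prm2 at 2.56, 2.86, 11.0 and 6.79 TPM, and Tnp2 and Smcp were at 0 throughout. Amhr2 was lower in the same libraries as Tdpoz2 and the sperm sum higher, and their part in its level was not tested.

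**Figure D5:**
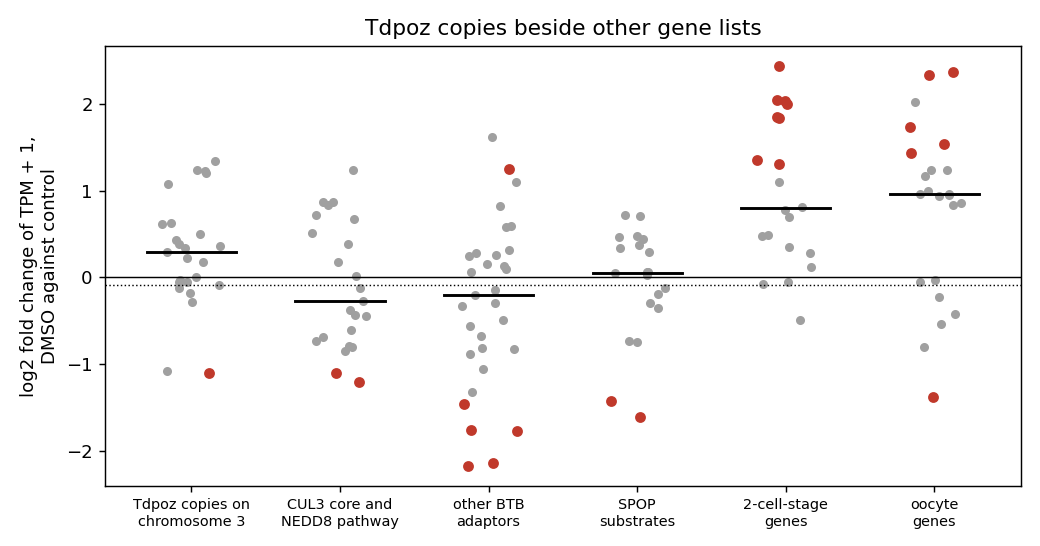
Log2 fold change of TPM + 1 in DMSO against control (vertical axis) of each tested gene of the Tdpoz copies and 5 other lists; red points were called by limma, black lines are the medians of each list, and the dotted line is the median of all genes tested. The Tdpoz copies have a median of 0.29 with 1 called gene, Tdpoz2, whereas the 2-cell-stage genes have a median of 0.80 with 8 called higher.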

How the data were processed

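RNA-seq libraries were prepared from 2-cell embryos with an ultra-low-input cDNA kit and sequenced with 50-base reads. Per the study's methods, the authors quantified transcripts with kallisto on the Ensembl GRCm38 transcriptome and summed them per gene with tximport, and the deposited values are TPM. TPM keep no counts, so no interval from depth was computed. For the comparison of 2 DMSO with 2 control libraries, log2(TPM + 1) of the genes averaging 1 TPM or more (12038 of 30049) was fitted with limma 3.58.1 in R 4.3.3 (moderated variances with a mean trend, no replicate block, Benjamini-Hochberg adjustment over all genes tested, threshold 0.05). Genes were called at that threshold. Because of the pseudocount, fold changes understate those of low genes. The script was tested on simulated data.

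Gene names came from the GENCODE annotation of GRCm38, which named 29668 identifiers and left 381 unnamed. All 8 Tdpoz symbols of RefSeq matched a listed gene. Copies were found with BLAST 2.17.0 (at least 50% of a member's coding sequence covered and at least 50% identity), and coding sequences were aligned with MAFFT 7.526. The genes named were every Tdpoz member, Spop and Spopl, neighbours within 500 kb that were copies or were called and averaged 10 TPM or more, the 5 genes nearest in pattern to the family sum, and for each pathway list the called genes with the largest changes (up to 3 in each direction) with Cul3 and Rbx1. Genes of the stage and marker lists were named after their values were seen. The members and the gene lists were chosen with earlier results of these data known. Alternatives covered the pseudocount (0.1), the filter (none, or an average of 5 TPM), the variance trend, the scaling, a replicate block and leaving out each library. A rescaling to the same total over the listed genes and sums over further copies were chosen after seeing the data.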

Additional observations from a re-analysis of the deposited data

How the results depend on the processing

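The number of genes called was 2470, and it was 0 without a filter on low values (22257 genes tested, 5368 at an unadjusted limma p below 0.05), 5132 (42.6% of the genes tested) with a replicate block, and between 3 and 2091 when 1 library was left out (3 without either control, 15 without DMSO replicate 1). A fit without 1 library leaves a lone sample in its group, which is assumed to vary like the others. The split of higher and lower calls was 773 and 1697, against 871 and 1364 with median-ratio scaling and 1076 and 1121 with quantile scaling. The number of Tdpoz genes called, 1, was 0 with a pseudocount of 0.1, without a filter, without the variance trend, with median-ratio scaling and with quantile scaling, 2 (Tdpoz2 and Tdpoz3) with the replicate block, and 0 to 0 with 1 library left out. The adjusted p of Tdpoz2 was 0.0503, 0.117, 0.0526, 0.0538 and 0.0602 in the first 5 of these, 0.0165 with the replicate block, 0.0384 with the filter at 5 TPM and 0.0493 after rescaling, and its log2 fold change stayed between -1.28 and -0.93. The limma adjusted p of Tdpoz3 was 0.0112 with the block. Same-numbered samples share no stated source, and with 2 pairs the deviations of same-numbered libraries correlated at 0.354 across 12038 genes, which are not independent replicates. The number of chromosome 3 copies called, 1, was 0 with a pseudocount of 0.1, without a filter, without the trend and with median-ratio scaling. It was 1 with quantile scaling, where no member was called, so the copy called there was not Tdpoz2. It was 2 with the filter at 5 TPM and 8 of 25 with the block, beside 42.6% of all genes in that fit. The log2 ratio of the 5-gene sum ran from 0.04 to 0.30 over the scalings and from -0.23 to 0.35 with 1 library left out. The fold change of Tdpoz1 changed sign without control replicate 2 (-0.11), without DMSO replicate 1 (-0.16) and after rescaling (-0.0101). That of Tdpoz5 changed sign with quantile scaling (0.18), without control replicate 1 (0.41) and without DMSO replicate 2 (0.28), ranging from -0.51 to 0.41 with 1 library left out, and that of Spopl without DMSO replicate 1 (-0.15), ranging from -0.15 to 0.79. Spop was called in none of these fits and stayed below 0 in each (-0.57 to -0.05). Cul3 was called with the filter at 5 TPM (limma adjusted p = 0.0430) and under the block (0.00717). The causes of these shifts were not tested. Of 119 alternative values of the 10 named pathway genes, 79 kept their side of the threshold, 38 lost a call, 2 (both of Cul3) gained one and 0 changed sign. The median of the chromosome 3 copies ran from 0.22 to 0.34 over the other settings and from -0.17 to 0.63 with 1 library left out. Beside the same 42.6%, the number called with the block was 12 of 23 in the CUL3 and NEDD8 list, 14 of 31 among other BTB adaptors, 4 of 20 among SPOP substrates, 12 of 20 among 2-cell-stage and 17 of 23 among oocyte genes, and the median of the BTB adaptors was 0.01 with quantile scaling. With 2 libraries a group and no counts, small changes in the Tdpoz genes cannot be told from none.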
